A study of Mus musculus with 12 samples.

Results

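Expression of the 4 Hox clusters was examined in subcutaneous sarcomas grown from Ras-transformed mouse myofibroblasts. Every gene was taken whose symbol is Hoxa, Hoxb, Hoxc or Hoxd followed by a number and which has a probeset carrying that symbol alone. This gave 37 Hox genes out of 19938 genes with a probeset of their own, and 1 probeset stood for each. They comprise 10 Hoxa, 9 Hoxb, 9 Hoxc and 9 Hoxd genes. Hoxb8 is not among them, because it was measured only by a probeset shared with Hoxb7.

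RNA came from 12 tumors on Affymetrix mouse gene arrays, 4 each of R, VdR and VR, numbered 1, 2, 4 and 5 in the labels. All 3 groups derive from J2A, a line of aortic myofibroblasts from C57BL/6 mice that lack p16, p19 and Vnn1, and all carry oncogenic RasV12. R cells received RasV12 with no Vnn1, VR cells received it with intact Vnn1, the pantetheinase, and VdR cells with a catalytically deficient Vnn1. Cells were grafted under the skin of the back in nude mice on normal diet, and tumors were taken after 2 to 3 weeks, depending on growth. The constructs were retroviral, with Vnn1 behind a cytomegalovirus promoter, and the methods describe no transduction made anew for each tumor. The 4 tumors of a group therefore replicate the graft, and p-values measure the spread between grafts of 1 transduced line. Tumors also held cells of the host. The label on RNA extraction speaks of sorted cell subsets, whereas sample source and title speak of tumors, and this was not settled here.

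Hox genes encode homeodomain transcription factors that give cells their address along the head-to-tail axis and along the limbs. They lie in 4 clusters in the order of their domains, from low paralog numbers, active towards the head, to high numbers, active towards the tail, the distal limb and the genital tract, and genes with the same number in different clusters are paralogs. Adult fibroblasts and smooth muscle cells keep much of the Hox pattern of the site they came from. Hox proteins bind DNA with TALE homeodomain partners of the Pbx, Meis and Pknox families, and the clusters are held silent by Polycomb and active by Trithorax complexes.

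Values are log2 expression per probeset, normalized by the submitters, and 1 unit is a doubling. A level also depends on the probes, so levels are not compared between genes. Each gene was set against 5.38, the 25th percentile of all values, taken here as the weak end of the array. Of the 37 Hox genes, 32 lay above it in all 12 tumors: 9 of 10 Hoxa, 9 of 9 Hoxb, 6 of 9 Hoxc and 8 of 9 Hoxd. The other 5 were above it in some tumors, Hoxc10 in 11, Hoxd12 in 10, Hoxa11 in 4, Hoxc4 in 2 and Hoxc11 in 2. None was below it everywhere. A gene had to exceed this value in at least 4 tumors to be tested, which 35 Hox genes did, of 16573 genes tested in all. Hoxc4 and Hoxc11 were not tested.

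**Figure D1:**
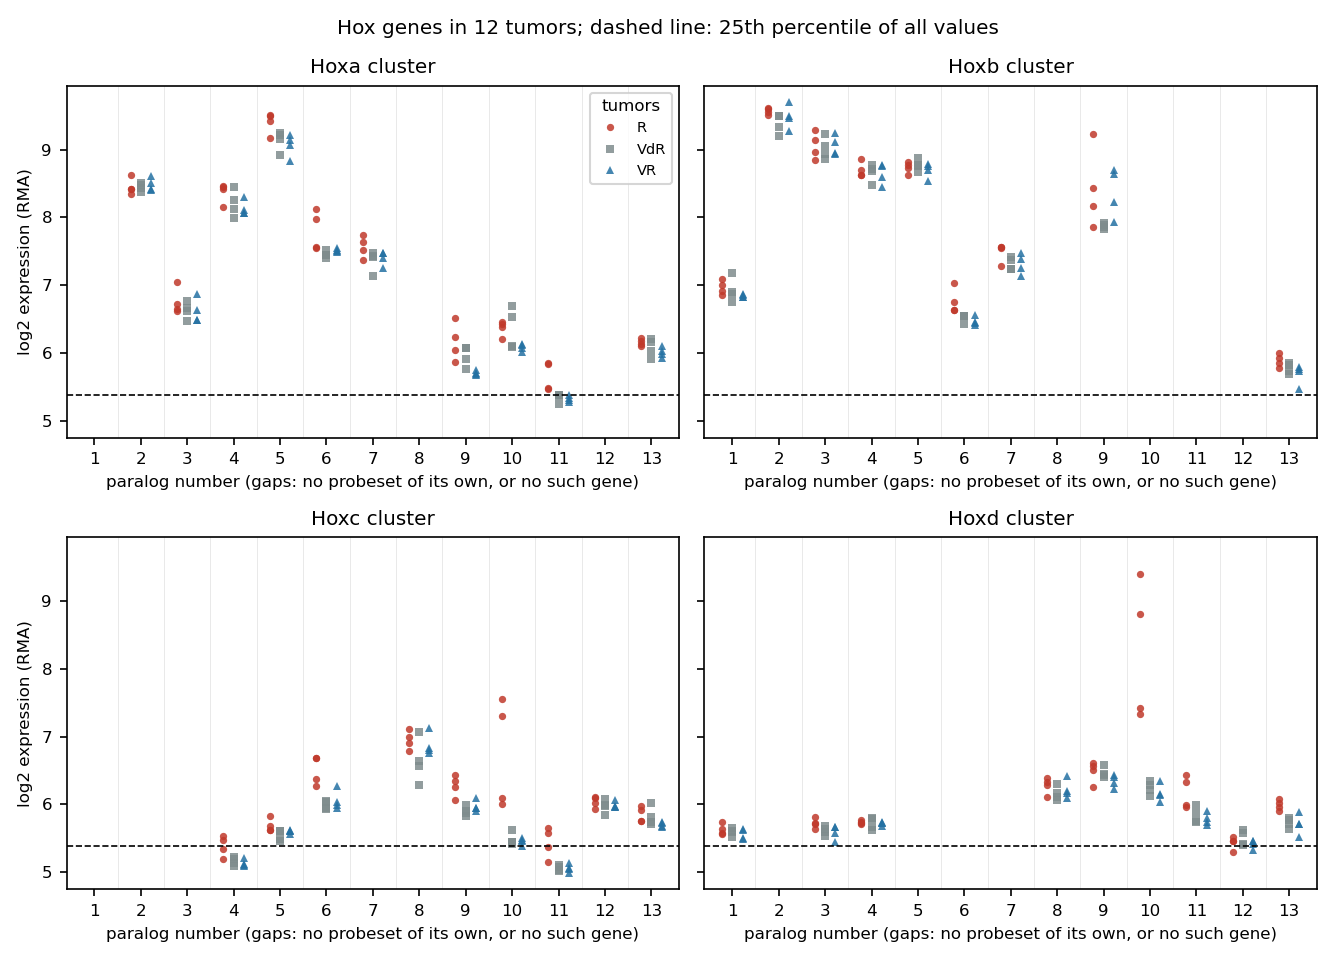
Log2 expression of 37 Hox genes by paralog number (horizontal axis) in each cluster (panel), 1 point per tumor for R (circles), VdR (squares) and VR (triangles), with the 25th percentile of all values, 5.38, as a dashed line. Hoxd10 and Hoxc10 stand out, with all 4 R tumors above all 8 VdR and VR tumors.

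Every Hox gene that passed the test was lower than in the R group, in VR tumors alone or in both VR and VdR tumors. In VR against R tumors 10 of the 35 tested genes were lower by limma at an adjusted p under 0.05, which is 28.6% of them, where 7.48% of all tested genes were lower. No Hox gene was higher, where 13.6% of all genes were. The 10 genes were Hoxa5, Hoxa9, Hoxa11, Hoxb6, Hoxc6, Hoxc9, Hoxc10, Hoxd10, Hoxd11 and Hoxd13. In VdR against R tumors 6 were lower, 17.1% beside 2.81% of all genes, and none was higher beside 6.58%. These 6, Hoxa11, Hoxc6, Hoxc9, Hoxc10, Hoxd10 and Hoxd13, are among the 10. Both comparisons use the same R tumors and are not independent of each other. In bulk tumors fewer cells of a type and less RNA per cell cannot be told apart.

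Differences over the whole set were small outside a pair of genes. The median log2 difference of the 35 genes was -0.14 in VR against R tumors and -0.15 in VdR against R tumors, beside -0.015 and 0.0038 over all tested genes. Values of the groups did not overlap for 10 Hox genes in VR against R tumors, 28.6% beside 25.8% of all genes. For VdR against R tumors it was also 10 genes, beside 14.2% of all genes. Hoxa11 was tested only because its R tumors passed the filter, so it had to be higher there. It is also among the 10 non-overlapping genes of both comparisons, which the filter fixed in the same way. Without it, 9 and 5 of 34 genes were lower. The methods' t-test, which the study names for its qRT-PCR, with the same adjustment left 1 gene lower in VR tumors, Hoxa10, which is 2.86% beside 4.05% of all genes. It left none in VdR tumors, beside 0.615% of all genes. There 10 Hox genes had an unadjusted p under 0.05, a threshold at which the share of all genes is not given. After adjustment, the larger share of lower calls among Hox genes than among all genes was therefore not seen with that test.

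In VR against VdR tumors, which differ in the catalytic activity of Vnn1, none of the 35 Hox genes passed by limma. Of these 1 had an unadjusted p under 0.05, a threshold at which the share of all genes is not given. At the adjusted threshold 1.77% of all genes were higher and 1.67% lower. The methods' t-test also gave no Hox gene. Hoxa9 and Hoxb9 were the genes whose values did not overlap between these groups, where 12.6% of all genes did not. The median difference was -0.020 beside -0.018 over all genes.

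**Figure D2:**
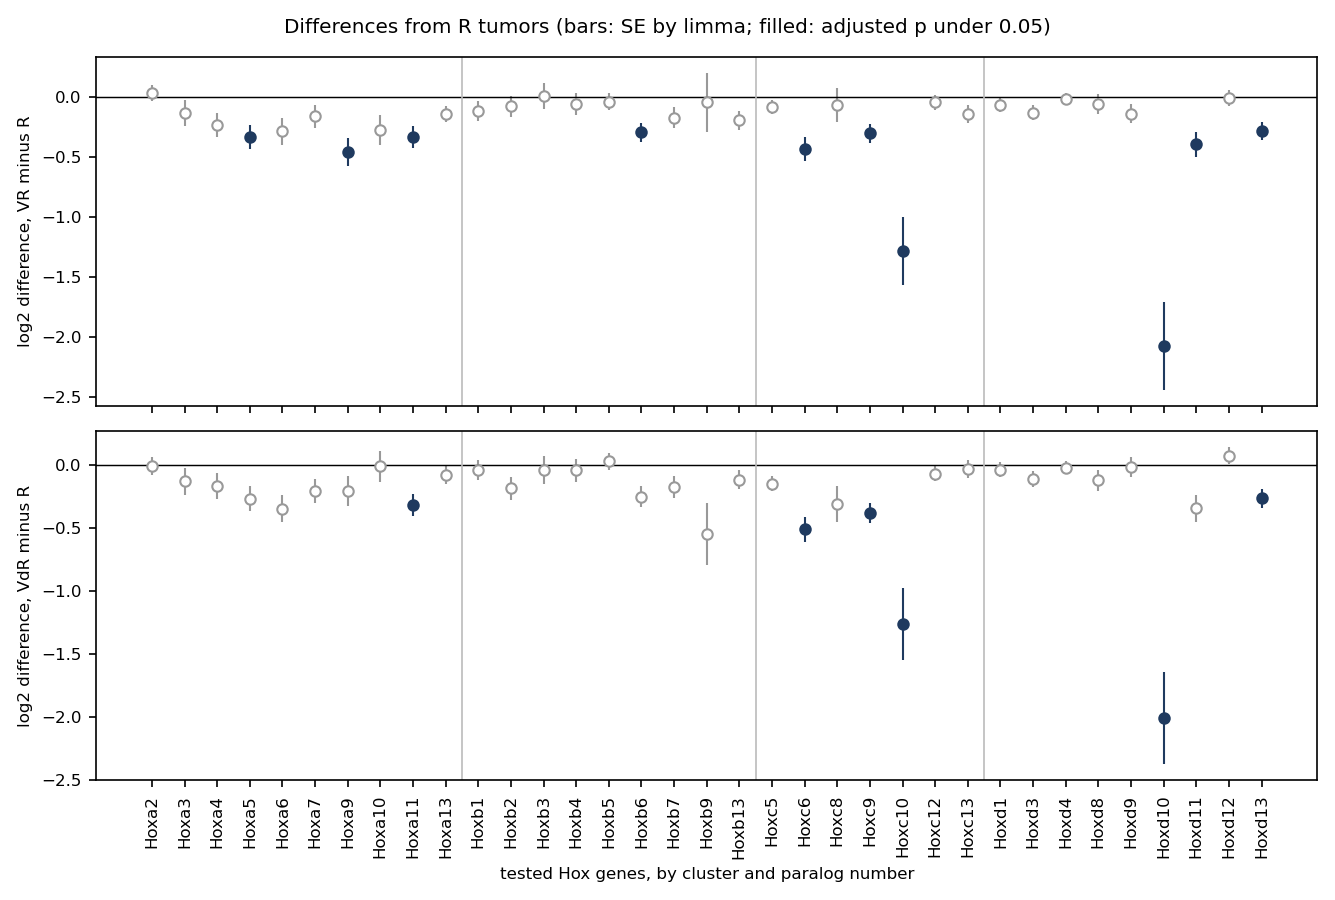
Log2 differences of the 35 tested Hox genes from R tumors, VR minus R above and VdR minus R below, in order of cluster and paralog number. Bars are SE from limma and filled points have an adjusted p under 0.05, 10 above and 6 below, all of them negative.

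The genes that were lower had middle and high paralog numbers. Of 10 tested genes with numbers 1 to 4 none passed against R in either comparison, and their differences ran from -0.24 to 0.03 in VR tumors and from -0.19 to -0.01 in VdR tumors. Under alternatives Hoxa4 passed as lower in VR tumors with array weights and without R replicate 5. Hoxc4 did so when no filter was used. Among numbers 5 to 8, 3 of 10 were lower in VR tumors and 1 of 10 in VdR tumors. Among numbers 9 to 13, 7 of 15 and 5 of 15 were lower, or 6 and 4 of 14 without Hoxa11. Median differences over these bands were -0.075, -0.17 and -0.28 in VR tumors and -0.042, -0.23 and -0.21 in VdR tumors. Without Hoxa11 the median for numbers 9 to 13 was -0.24 in VR tumors and -0.16 in VdR tumors. The bands are a description and were not tested against each other. By cluster, 3 of 10 Hoxa, 1 of 9 Hoxb, 3 of 7 Hoxc and 3 of 9 Hoxd genes were lower in VR tumors. In VdR tumors it was 1, 0, 3 and 2 of the same numbers. Without Hoxa11 it was 2 of 9 Hoxa genes in VR tumors and 0 of 9 in VdR tumors.

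Hoxd10, a group 10 paralog that patterns the lumbar axis and the hindlimb, showed the largest difference of the 35 genes. Its log2 values in R tumors 1, 2, 4 and 5 were 7.43, 9.41, 8.81 and 7.33. They were 6.28, 6.34, 6.21 and 6.12 in VdR tumors and 6.15, 6.15, 6.03 and 6.35 in VR tumors. All R tumors lay above all others, and R tumors 2 and 4 lay well above R tumors 1 and 5. Expression was 4.22-fold lower in VR than in R tumors, a log2 difference of -2.08 (SE 0.37, limma adjusted p = 0.00223, 95% interval -2.87 to -1.28). In VdR tumors it was 4.02-fold lower, with -2.01 (adjusted p = 0.00481). VR and VdR tumors differed by -0.07, with a 95% interval from -0.86 to 0.73 and an adjusted p of 0.94. The exact two-sided permutation test gave p = 0.0286 for each comparison with R, the smallest it can give with 4 against 4 tumors.

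Hoxc10, the paralog of Hoxd10 in the Hoxc cluster, showed the same split among the R tumors. R tumors 1, 2, 4 and 5 had log2 values of 6.10, 7.31, 7.55 and 6.00. VdR tumors had 5.61, 5.41, 5.44 and 5.45, and VR tumors 5.50, 5.38, 5.47 and 5.46. R tumors 2 and 4 were again highest, R tumors 1 and 5 lay above all 8 other tumors, and those 8 were close to the 25th percentile. The difference was -1.29 in VR against R tumors (SE 0.29, adjusted p = 0.00776), 2.44-fold lower, and -1.26 in VdR against R tumors (adjusted p = 0.0157), 2.40-fold lower. The remaining group 10 paralog, Hoxa10, ranged from 6.20 to 6.46 (R), 6.09 to 6.70 (VdR) and 6.02 to 6.13 (VR). Its difference was -0.28 in VR against R tumors (adjusted p = 0.127) and -0.01 in VdR against R tumors (adjusted p = 0.969). R and VR values did not overlap, whereas VdR values covered the range of R and overlapped that of VR.

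The spread of these genes lay in the R group, and the split of R tumors recurred across the clusters. R tumors 2 and 4 both lay above R tumors 1 and 5 in 20 of 35 tested Hox genes, or 57.1%, and in 9.93% of all 16573 genes. This order was noticed in Hoxd10 and Hoxc10, which are both counted among the 20, and is a description with no test. The SD of Hoxd10 among R, VdR and VR tumors was 1.03, 0.094 and 0.13 (n = 4 each), and that of Hoxc10 was 0.80, 0.092 and 0.052. Limma uses 1 spread per gene over all groups. With the methods' t-test on the groups compared, Hoxd10 no longer passed (adjusted p = 0.0528 for VR and 0.110 for VdR against R), nor did Hoxc10 (adjusted p = 0.0881 and 0.166). Both genes kept their calls by limma when any 1 tumor was left out, and over all alternatives the Hoxc10 difference in VR against R tumors stayed between -1.53 and -0.999.

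Hoxd10 lies between Hoxd11 and Hoxd9, whose differences from R were smaller. The 250 bases before the annotated start of each are shown because these neighbors differ so much in response. They are from RefSeq on build GRCm38.p6, 5′ to 3′ on the plus strand, at chr2:74682073-74682322 for the second listed start of Hoxd11, chr2:74691641-74691890 for Hoxd10 and chr2:74697513-74697762 for Hoxd9. The lines below are in cluster order. Capitals mark ATCAATCA, the reverse complement of the Hox-Pbx motif TGATNNAT, in Hoxd11, and ATTGG, the reverse complement of the CCAAT box, in Hoxd10.
Hoxd11: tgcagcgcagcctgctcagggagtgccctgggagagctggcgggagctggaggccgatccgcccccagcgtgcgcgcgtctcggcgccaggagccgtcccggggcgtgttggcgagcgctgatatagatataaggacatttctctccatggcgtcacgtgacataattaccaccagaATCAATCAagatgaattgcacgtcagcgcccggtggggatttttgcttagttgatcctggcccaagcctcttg
Hoxd10: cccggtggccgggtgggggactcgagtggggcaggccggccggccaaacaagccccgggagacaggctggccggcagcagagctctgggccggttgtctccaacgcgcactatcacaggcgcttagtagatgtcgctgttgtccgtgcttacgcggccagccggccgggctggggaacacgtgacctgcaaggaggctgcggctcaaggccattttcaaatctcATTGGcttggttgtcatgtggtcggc
Hoxd9: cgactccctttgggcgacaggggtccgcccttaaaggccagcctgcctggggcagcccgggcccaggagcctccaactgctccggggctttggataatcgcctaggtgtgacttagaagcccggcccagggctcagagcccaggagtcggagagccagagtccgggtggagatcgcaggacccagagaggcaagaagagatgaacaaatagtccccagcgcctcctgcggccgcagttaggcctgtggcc

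The TATA box letters TATAAA were searched on both strands, as were the letters CCAAT and the motif TGATNNAT, and no match overlapped another in the windows printed. The CCAAT match of Hoxd10 lies at -26 to -22 from the start, and TATAAA and TGATNNAT had no match in that window. The TGATNNAT match of Hoxd11 lies at -73 to -66. None of these letters was found for Hoxd9. GC content was 60.4% for Hoxd11, 65.6% for Hoxd10 and 65.2% for Hoxd9, with 20, 20 and 13 CpG dinucleotides. The window of the other listed start of Hoxd11, not printed, had no match to any of these letters. Its GC content was 44.8%, with 2 CpG dinucleotides. RefSeq start windows were given for 21 of the 37 genes, 23 windows in all, and Hoxc10 had none. CCAAT was in 56.5% of the Hox windows and 33.8% of all 32851 windows, TATAAA in 13% and 12.4%, and TGATNNAT in 13% and 7.68%. Median GC content was 59.2% beside 52.4%, with a median of 13 CpG beside 6. A match is a string of letters and no evidence of binding.

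Hoxd11, which with its paralogs shapes the forearm and the kidney, was lower in VR tumors. Its values were 6.00, 6.43, 6.33 and 5.97 (R), 5.99, 5.74, 5.76 and 5.87 (VdR) and 5.74, 5.70, 5.80 and 5.90 (VR). R tumors 2 and 4 were highest and VdR tumor 1 reached the lower R tumors. The difference was -0.40 for VR (SE 0.10, adjusted p = 0.0173) and -0.35 for VdR against R (adjusted p = 0.0577), and VR and VdR differed by -0.05 (adjusted p = 0.83). Without R replicate 4 the VR call was lost (adjusted p = 0.0561). Hoxd9 ranged from 6.25 to 6.61 (R), 6.41 to 6.59 (VdR) and 6.22 to 6.43 (VR), with differences of -0.14 (adjusted p = 0.225) and -0.02 (adjusted p = 0.922).

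Hoxd13, which patterns the digits and the genital tract, was the most even of the called genes within R tumors, with an SD of 0.073. Its values were 6.02, 5.97, 6.08 and 5.90 (R), 5.80, 5.63, 5.71 and 5.76 (VdR) and 5.71, 5.51, 5.89 and 5.71 (VR). The lowest R tumor lay just above the highest VR tumor, and R tumors 2 and 4 were not set apart. The difference was -0.29 for VR (SE 0.075, adjusted p = 0.0181) and -0.26 for VdR against R (adjusted p = 0.0475). The VR call was lost without R replicate 4 (adjusted p = 0.0564). The VdR call held only when R replicate 5 or VR replicate 2 or 4 was the tumor left out, and otherwise the adjusted p was 0.0618 to 0.135. Centring on array medians also ended it. Hoxd1, Hoxd3, Hoxd4, Hoxd8 and Hoxd12 did not pass, with differences from -0.13 to 0.07 against R.

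Hoxc6 and Hoxc9, which act in the thoracic body wall and in spinal motor neurons, were lower in both groups with Vnn1. Hoxc6 values were 6.37, 6.69, 6.68 and 6.27 (R), 5.93, 6.05, 6.04 and 5.95 (VdR) and 5.95, 6.28, 6.04 and 6.00 (VR). Only VR tumor 2 reached the lowest R tumor. The differences were -0.44 for VR (SE 0.10, adjusted p = 0.00923) and -0.51 for VdR against R (adjusted p = 0.00740). Hoxc9 values were 6.26, 6.43, 6.35 and 6.07 (R), 5.99, 5.82, 5.88 and 5.90 (VdR) and 5.90, 5.95, 5.95 and 6.09 (VR). VR tumor 5 overlapped R tumor 5, and the VdR tumors lay below all R tumors. The differences were -0.31 (SE 0.077, adjusted p = 0.0139) and -0.38 (adjusted p = 0.00799). Both genes kept both calls in every fit with 1 tumor left out, and lost them with the methods' t-test (adjusted p = 0.0725 to 0.0822).

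The untested Hoxc11, next to Hoxc10, ranged from 5.15 to 5.65 (R), 5.01 to 5.11 (VdR) and 4.99 to 5.14 (VR). The R values lay above the others, but all but 2 tumors were below the 25th percentile. Hoxc4 ranged from 5.19 to 5.53 (R), 5.09 to 5.23 (VdR) and 5.10 to 5.21 (VR), also near the weak end. Hoxc5, Hoxc8, Hoxc12 and Hoxc13 were tested and did not pass, with differences from -0.31 to -0.03 against R.

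**Figure D3:**
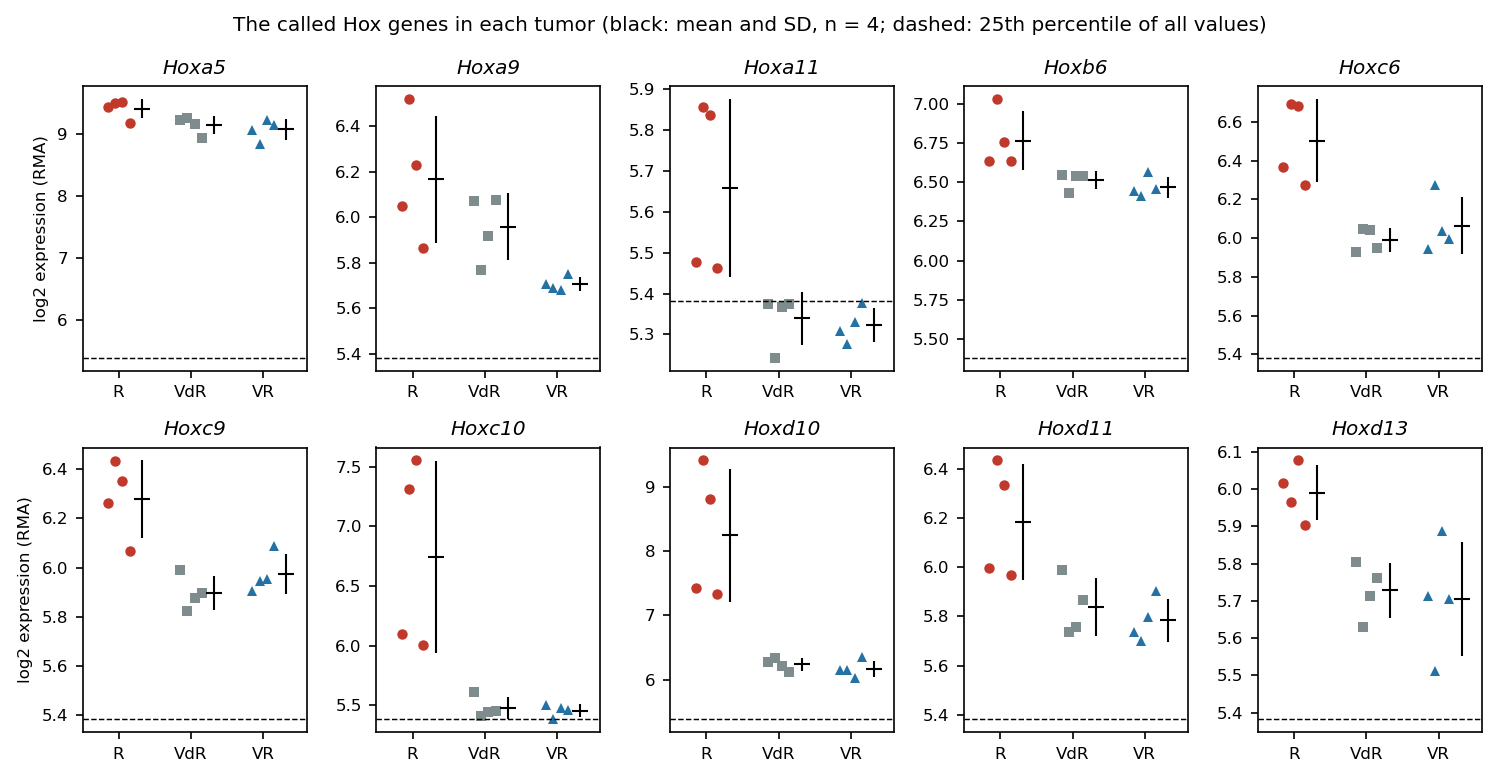
The 10 Hox genes called in at least 1 comparison, with log2 expression of each tumor (colored symbols, in the order 1, 2, 4, 5), the mean and SD of each group (black, n = 4) and, dashed, the 25th percentile of all values. Vertical scales differ between panels. In 9 of the 10, all but Hoxd13, R tumors 2 and 4 lie above R tumors 1 and 5, or 90% beside 9.93% of all tested genes. The 9 include Hoxd10 and Hoxc10, where this order was noticed.

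In the Hoxa cluster Hoxa9, a regulator of blood progenitors and of the thoracolumbar axis, was lower in VR tumors. Its values were 6.05, 6.52, 6.23 and 5.86 (R), 6.07, 5.77, 5.92 and 6.08 (VdR) and 5.71, 5.69, 5.68 and 5.75 (VR). All VR tumors lay below all others, while VdR and R tumors overlapped. The VR against R difference was -0.46 (SE 0.12, adjusted p = 0.0155), and VdR against R gave -0.21 (adjusted p = 0.324). The direct comparison of VR with VdR tumors gave -0.25 with a 95% interval from -0.51 to 0.0032 and an adjusted p of 0.267. That interval leaves the size of any difference between VR and VdR tumors in Hoxa9 unsettled.

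Hoxa5, which acts in the lung and the cervical and upper thoracic axis, had values of 9.42, 9.50, 9.51 and 9.18 in R tumors. VdR tumors had 9.22, 9.24, 9.16 and 8.92 and VR tumors 9.07, 8.84, 9.22 and 9.14. R tumor 5 lay within the range of the others. The difference was -0.33 for VR (SE 0.10, adjusted p = 0.0347) and -0.27 for VdR against R (adjusted p = 0.131). Without R replicate 1, 2 or 4 or VR replicate 1 or 2 the call was lost (adjusted p = 0.0660 to 0.100).

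Hoxa11, which acts in the forearm, the kidney and the uterus, was above the 25th percentile in the R tumors alone. Its values were 5.48, 5.86, 5.84 and 5.46 (R), 5.37, 5.24, 5.37 and 5.37 (VdR) and 5.31, 5.28, 5.33 and 5.38 (VR). R tumors 2 and 4 were again highest. The differences were -0.33 for VR (adjusted p = 0.0192) and -0.32 for VdR against R (adjusted p = 0.0434), between levels near the weak end of the array. The VR call was lost without R replicate 4 or VR replicate 2 (adjusted p = 0.0514 to 0.0605). The VdR call held only without R replicate 1 or 5, and in the other 10 fits the adjusted p was 0.0547 to 0.127. It was lost also with array weights, with the tumor number as a block and with only the groups compared. Hoxa6, which acts in the thoracic axis, had values of 7.55, 8.12, 7.97 and 7.56 (R), 7.45, 7.41, 7.52 and 7.45 (VdR) and 7.48, 7.50, 7.51 and 7.55 (VR). All R tumors lay above the others, tumors 2 and 4 by most. It did not pass, with -0.35 in VdR (adjusted p = 0.0720) and -0.29 in VR tumors (adjusted p = 0.0823). Hoxa2, Hoxa3, Hoxa4, Hoxa7 and Hoxa13 did not pass, with differences from -0.24 to 0.03.

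In the Hoxb cluster Hoxb6, a gene of lateral plate mesoderm and of blood cell precursors, was lower in VR tumors. Its values were 6.64, 7.03, 6.76 and 6.64 (R), 6.54, 6.43, 6.54 and 6.54 (VdR) and 6.44, 6.41, 6.56 and 6.46 (VR). R tumors lay above all others, with tumor 2 highest. The difference was -0.30 for VR (SE 0.081, adjusted p = 0.0215) and -0.25 for VdR against R (adjusted p = 0.0763). The VR call was lost without VR replicate 2 (adjusted p = 0.0589).

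Hoxb9, which acts in rib patterning, differed in another order without passing the test. It had 8.17, 9.23, 8.43 and 7.86 (R), 7.87, 7.88, 7.83 and 7.92 (VdR) and 7.94, 8.64, 8.22 and 8.70 (VR). VdR tumors were even and lay below all VR tumors, and R tumors spanned the VR values and overlapped the VdR values. Differences were -0.55 for VdR against R (adjusted p = 0.201), 0.50 for VR against VdR (adjusted p = 0.293) and -0.05 for VR against R (adjusted p = 0.905). Hoxc8, which acts in the thoracic axis and in motor neurons, had 6.79, 7.12, 6.99 and 6.91 (R), 7.06, 6.64, 6.29 and 6.57 (VdR) and 6.81, 7.14, 6.75 and 6.83 (VR). Its groups overlapped, with -0.31 for VdR against R (adjusted p = 0.207). Hoxb1 to Hoxb5, Hoxb7 and Hoxb13 did not pass, with differences from -0.20 to 0.03 against R. The shared Hoxb7 and Hoxb8 probeset, not tested, ranged from 7.75 to 8.01 (R), 7.51 to 7.74 (VdR) and 7.39 to 7.75 (VR).

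Non-coding genes of the clusters were measured by few or weak probesets. Mir196b, between Hoxa9 and Hoxa10, encodes a microRNA of a family known to cleave Hoxb8 transcripts. Its hairpin probeset had 5.68, 6.81, 5.88 and 5.84 (R), 5.73, 5.26, 5.36 and 5.47 (VdR) and 5.45, 5.38, 5.50 and 5.45 (VR). R tumor 2 stood above all others, and VdR tumor 1 overlapped the R tumors. The difference was -0.61 for VR (SE 0.20, adjusted p = 0.0451), which was lost in 15 of 22 alternatives, and -0.59 for VdR against R (adjusted p = 0.0838). The mature miR-196b-5p (RefSeq, GRCm38.p6, chr6:52230129-52230150, minus strand) is shown with miR-196a-5p of the Hoxb and Hoxc clusters because they share the seed, bases 2 to 8, in capitals.
mmu-miR-196b-5p: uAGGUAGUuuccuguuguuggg
mmu-miR-196a-5p: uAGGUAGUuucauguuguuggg

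The probesets of Mir10a, Mir10b and the antisense transcript Haglr were above the 25th percentile in 0 tumors, Mir196a-1 in 2, Mir196a-2 in 3 and Hottip in 6. Hoxaas2 and Hoxd3os1 were above it in all 12 and did not pass the test.

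Over 79 regulators tested, from the lists that follow, 17 were called in VR against R tumors, 21.5% beside 21.1% of all genes. It was 8 in VdR against R tumors, 10.1% beside 9.38%, and 5 in VR against VdR tumors, 6.33% beside 3.44%. Against R the lists together were thus called about as often as genes in general when both directions are counted together. By direction, 13 of the 79 were lower and 4 higher in VR against R tumors, where 7.48% and 13.6% of all genes were. In VdR against R tumors 6 were lower and 2 higher, where 2.81% and 6.58% of all genes were. Lower calls thus made up a larger share of the lists than of all genes in both comparisons, and higher calls a smaller share. Of 8 TALE cofactors, the partners of Hox proteins, none passed in VR against R tumors by limma, where 1 had an unadjusted p under 0.05. In VdR against R tumors 2 of 8 passed, 25% beside 9.38% of all genes. Meis3 was higher by 0.35 (adjusted p = 0.0391) and Meis2 lower, with -0.28 (adjusted p = 0.00687). The Meis3 call was lost in 8 of the 12 fits that left out 1 tumor (adjusted p = 0.0511 to 0.116), and that of Meis2 in none. Meis1, the partner of Hoxa9 in blood cells, averaged 9.14 (R), 9.14 (VdR) and 9.18 (VR). The median difference of the list was 0.014 in VR and 0.047 in VdR against R tumors.

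Polycomb genes, which encode the repressors of the clusters, moved in both directions. Of 21 tested, 4 were lower (19% beside 7.48% of all genes) and 2 higher (9.52% beside 13.6%) in VR against R tumors, with a list median of -0.018. Phc1 (-0.38, adjusted p = 0.00201), Cbx2 (-0.27, adjusted p = 0.00801), Pcgf2 (-0.28, adjusted p = 0.00850) and Rnf2 (-0.30, adjusted p = 0.0111) encode subunits of Polycomb complex 1. Eed of complex 2 (0.40, adjusted p = 0.0136) and Phc3, of complex 1 like Phc1 (0.22, adjusted p = 0.0386), were the higher ones, named after their values were seen. Phc3 lost its call in 7 of the 12 fits with 1 tumor left out. In VdR against R tumors Phc1 (-0.45, adjusted p = 0.00117) and Mtf2 (-0.32, adjusted p = 0.0207) were lower, Mtf2 not without R replicate 4 (adjusted p = 0.0634). Ezh2, the histone methyltransferase, was at -0.12 (adjusted p = 0.325) and Bmi1 at 0.04 (adjusted p = 0.706) in VR against R tumors.

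Of 11 Trithorax and demethylase genes, which encode activators, only Men1 passed. Men1 encodes menin, which tethers the Kmt2a methyltransferase to Hox genes. It was lower in VR tumors than in R (-0.38, adjusted p = 0.00182) and than in VdR tumors (-0.37, adjusted p = 0.0170), the latter not without VR replicate 4 (adjusted p = 0.0574). VdR and R tumors differed by -0.02 (adjusted p = 0.918). Kmt2a itself was at 0.11 in VR against R tumors (adjusted p = 0.384). The early axial genes Cdx1, Cdx2 and Gdf11 did not pass in any comparison.

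Of 36 other transcription factors of regional mesenchyme tested, 8 were lower in VR against R tumors, 22.2% beside 7.48% of all genes, and 2 were higher, 5.56% beside 13.6%. In VdR against R tumors 3 were lower, 8.33% beside 2.81%, and 1 was higher, 2.78% beside 6.58%. In VR against VdR tumors 2 were lower and 2 higher, 5.56% each beside 1.67% and 1.77%. Msx2 of limb and skull (-0.53, adjusted p = 3.26e-04), Foxf1 of visceral mesenchyme (-0.42, adjusted p = 0.00170), Foxc2 (-0.44, adjusted p = 0.00359) and Irx3 (-0.42, adjusted p = 0.00602) fell in VR against R tumors. Of the other 4 lower genes 3 lost their calls in 6 to 10 of the 12 fits with 1 tumor left out, and 1 in 2 of them. Msx2 (-0.55, adjusted p = 0.00437) and Foxf1 (-0.41, adjusted p = 0.0158) were lower in VR than in VdR tumors too, where no Hox gene passed, and Meox2 (0.75, adjusted p = 0.0496) and Prrx1 (0.31, adjusted p = 0.0410) were higher. The last 2 calls were lost in 9 and 8 of the 12 fits with 1 tumor left out. The higher genes in VR against R tumors were Meox2 (0.74, adjusted p = 0.0154) and Tbx15 (0.18, adjusted p = 0.0385), both named for this comparison after their values were seen, and the call of Tbx15 was lost in 7 of those 12 fits and in 14 of 23 alternatives in all. In VdR against R tumors Shox2 was higher and Foxc2, Irx3 and Prrx1 lower, and each lost its call in 4 to 11 of the 12 fits with 1 tumor left out.

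Marker RNA of host cells differed between the groups. Macrophage markers were higher in both Vnn1 groups. In VR against R tumors it was 13 of 16, or 81.2%, beside 13.6% of all genes. In VdR against R tumors it was 15 of 16, or 93.8%, beside 6.58%. Mean levels of these markers were 9.22 to 9.52 (R), 10.26 to 10.52 (VdR) and 10.15 to 10.31 (VR). Ptprc, the pan-leukocyte gene, was higher by 1.14 and 0.92. The part of this change in the Hox results was not tested. All 10 myofibroblast markers were above the 25th percentile in every tumor, and none passed the test as lower in VR or VdR than in R tumors. Cnn1, a contractile gene, had the lowest differences, -0.55 in VR (adjusted p = 0.102) and -0.54 in VdR tumors (adjusted p = 0.165). The mean level of the 10 markers was 10.75 to 11.33 (R), 10.97 to 11.24 (VdR) and 11.22 to 11.48 (VR). In the VR against R comparison 5 of the 10 passed as higher, 50% beside 13.6% of all genes. These values do not tell grafted cells from host cells.

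Marker levels also varied within the R group. R tumors 2 and 4, the highest in Hoxd10 and Hoxc10, had macrophage levels of 9.52 and 9.22, and R tumors 1 and 5 had 9.26 and 9.44. Myofibroblast levels were 11.22 and 11.05 against 11.33 and 10.75. Skeletal muscle levels, which varied most, were 9.42 and 6.69 against 6.70 and 8.50. VdR tumors had muscle levels of 6.61 to 9.43, and VR tumors had 6.59 to 8.62. The part of these levels in the Hox results was not tested. Keratinocyte levels were 6.17 to 6.39 in all tumors. Endothelial levels were 8.55 to 9.15 (R), 8.70 to 9.0 (VdR) and 9.03 to 9.38 (VR), adipocyte levels 6.34 to 6.50, 6.28 to 7.25 and 6.35 to 7.27, and lymphocyte and NK cell levels 5.60 to 5.80, 5.70 to 6.00 and 5.98 to 6.07.

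**Figure D4:**
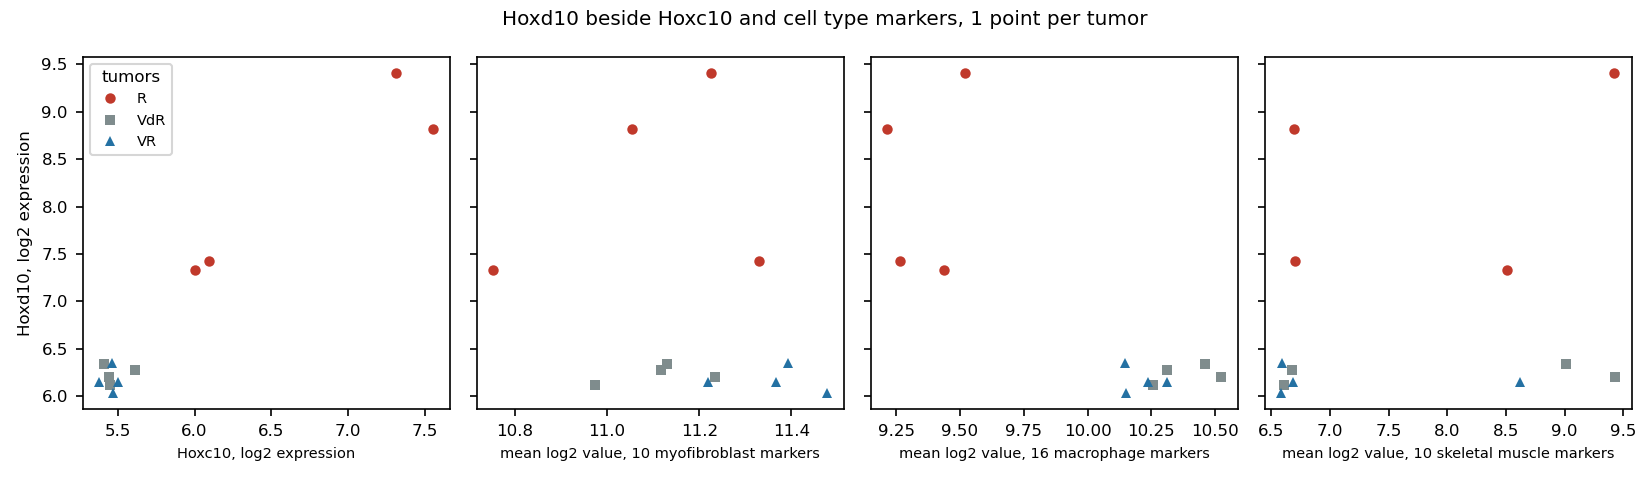
Log2 expression of Hoxd10 (vertical axis) in each of 12 tumors against Hoxc10 and against the mean log2 value of 10 myofibroblast, 16 macrophage and 10 skeletal muscle markers, for R (circles), VdR (squares) and VR (triangles). R tumors 2 and 4 are high in both Hox genes, 9.41 and 8.81 for Hoxd10, and lie apart from each other in the muscle panel, at 9.42 and 6.69.

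Vnn1, a check of the labels, was at 5.53 to 5.83 (R), 11.37 to 11.73 (VdR) and 10.54 to 11.26 (VR). Arrays of 1 group correlated at 0.988 to 0.996 across genes, and array medians were 6.66 to 6.77. No tumor was left out. The number of arrays limits the precision of all values.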

How the data were processed

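RNA of 12 J2A tumors (R, VdR and VR, 4 each, grouped by the sample labels) was hybridised to Affymetrix mouse gene arrays. The authors normalized the arrays with RMA in the oligo package, per the labels, and deposited log2 expression per probeset; background correction, quantile normalization and summarization were thus already done, which hides any change in total RNA. No version, genome build or batch is given in the sources used here. The platform annotation named 1 gene for 21789 of 35556 probesets, several for 1621 and none for 12146. Genes were represented by the probeset with the highest mean, and 16573 of 19938 genes exceeded the 25th percentile in at least 4 arrays. All were fitted with limma 3.58.1 in R 4.3.3, 1 coefficient per group over all 12 tumors, and p was adjusted over all tested genes (Benjamini-Hochberg, 0.05). Tumor numbers were not used as pairs in this fit. Deviations of same-numbered tumors correlated at -0.15 to 0.40, with 0.23 to 0.40 for number 2, and whether the numbers pair tumors was not settled.

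Values per tumor are given for every Hox gene called in a comparison and for the 3 uncalled ones with the largest differences; of other lists, the 4 called genes of lowest adjusted p per comparison and Meis1, Meis2, Ezh2, Bmi1, Kmt2a and Vnn1 were named, and any other is marked in the text as named after its values were seen. Some genes are not reported here. Lists comprised Hox cofactors, Polycomb, Trithorax, Cdx and Gdf11, other positional factors and markers of 8 cell types. The Hox genes and lists were chosen with earlier results of these data known. Alternatives changed the filter, probesets, moderation, weights, normalization, centring, block, samples and test.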

Additional observations from a re-analysis of the deposited data

Results flagged for a closer look

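In groups of 4 tumors, 7 single values of Hox genes stood apart from the other 3, by a gap that took most of the range of the group, out of 114 gene and group combinations examined in the 37 Hox genes and the Mir196b hairpin; chance alone marks about 1 in 20. In R replicate 5 Hoxa4 was at 8.15, where the other R tumors were at 8.42 to 8.46, and Hoxb7 at 7.29, where they were at 7.56. In VdR replicate 2 Hoxa11 was at 5.24, with the others at 5.37, and Hoxb6 at 6.43, with the others at 6.54. In VR replicate 2 Hoxb13 was at 5.46, with the others at 5.74 to 5.78, and Hoxc4 at 5.21, above the others at 5.10 to 5.11 and below the 25th percentile of all values. In VR replicate 4 Hoxc5 was at 5.56, with the others at 5.61 to 5.62.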

How the results depend on the processing

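No called Hox difference changed direction under any alternative, nor did those of Hoxa6, Hoxb9 and Hoxc8 in VdR against R tumors; other uncalled differences were not followed. Against the 10 genes lower in VR than in R tumors, a stricter filter at the median of all values left 2 of 14 genes still tested, a minimum change of 1.5-fold 2, and the methods' t-test 1. Lower calls made up 14.3%, 5.71% and 2.86% of the Hox genes tested, beside 9.43%, 1.44% and 4.05% of all genes. Leaving out 1 tumor gave 6 (without R replicate 4) to 13 (without R replicate 5) genes. Against the 6 genes lower in VdR than in R tumors the counts were 1, 2 and 0 (7.14%, 5.71% and 0% beside 4.04%, 0.712% and 0.615% of all genes), and 4 to 10 with 1 tumor left out, where 10 came without R replicate 5. No alternative called a Hox gene between VR and VdR tumors. Hoxd10 and Hoxc10 were the genes left by the 1.5-fold minimum, and where tested they lost their calls only with the methods' t-test.

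The tumor number as a replicate block gave 10, 5 (without Hoxa11) and 0 Hox genes and 20, 7 and 4 genes of the regulator lists, and same-numbered tumors were the best match in 10 of 24 cases. Counting both directions, 17 of 79 regulators (21.5% beside 21.1% of all genes) were called in VR against R tumors. It was 8 (10.1% beside 9.38%) in VdR against R and 5 (6.33% beside 3.44%) in VR against VdR tumors. The methods' t-test gave 9, 2 and 0, and the 1.5-fold minimum 1, 0 and 1. Array weights gave 26 in VR against R tumors, and fitting only the groups compared gave 4 in VdR against R tumors. Leaving out 1 tumor gave 11 to 18 (11 without VR replicate 5), 3 to 9 (3 without R replicate 1 or 4) and 2 to 5 (2 without VR replicate 4). Causes were not tested, except that fewer genes were tested under the stricter filter. The number of arrays and the weak signals of several Hox genes limit the precision.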
